A study of Sus scrofa with 20 samples.

Results

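A group of 67 genes of the cell division machinery was followed in the hearts of 20 pigs. Membership was set by a rule on gene symbols alone, and the group was chosen with earlier results of these data known. The rule takes cyclins of the A, B, D, E, G and H families, the numbered cyclin-dependent kinases (CDKs) with their inhibitors and small CKS subunits, and the numbered CDC genes without the CDC42 family. It also takes MCM helicase subunits, CENP centromere proteins, numbered kinesins, the BUB, aurora and polo-like kinase families, and TOP2A, PCNA, PCLAF, RRM1 and RRM2. With 1 probe set per gene, the one of highest mean signal, 67 of the 6765 genes with 1 symbol on the array met the rule, which uses symbols only. Each heart was hybridised to 1 porcine Affymetrix array, with 5 female pigs in each of 4 groups. SWOP pigs, named for the classical second window of protection, had a coronary artery closed 2 times for 10 min with 10 min of reflow after each closure, and their hearts were taken after 24 h of reperfusion. RCO pigs went through that stimulus 6 times, 12 h apart, per the series' design text, whereas their sample labels speak of 6 closures of 10 min. RCS pigs had 6 sessions of low-flow ischemia of 90 min, 12 h apart, which the labels call stenosis. Control pigs had a sham operation, a procedure without closure of the artery. The heart region sampled, and in RCO and RCS the time from the last session to sampling, are not stated in the sources used here. The series title asks whether preconditioning after chronic ischemia works through other mechanisms than the classical second window.

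A dividing cell copies its DNA with the MCM helicase, the PCNA clamp and nucleotides made by ribonucleotide reductase, then separates the copies on a spindle driven by aurora and polo-like kinases, kinesins and the centromere proteins. Cyclins switch the CDKs on, the CDKN proteins hold most of them back, and transcripts of the S phase and mitosis genes are abundant mainly in cycling cells. Adult cardiomyocytes have largely left the cell cycle, and in an injured heart most cells that divide are fibroblasts, endothelial cells and immune cells. Many genes that the symbol rule takes in, among them transport kinesins and CDKs of transcription, have duties outside division.

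The values are log2 signals, and folds are given beside the differences between groups. A gene was called, and is said to have risen or fallen, at a Benjamini-Hochberg adjusted p below 0.05 in limma's fit to all 20 arrays. The ± after a difference is its standard error, from a spread shared by the 4 groups. In SWOP against control 9 of the 67 genes were called (13.4%), 8 higher and 1 lower. Of all genes on the array 8.16% were called (4.66% higher and 3.5% lower). In RCO against control 14 were called (20.9%), 12 higher and 2 lower, where 15.6% of all genes were called (11.3% higher and 4.26% lower). In RCS against control 44 were called (65.7%), 31 higher and 13 lower, where 54.5% of all genes were called (28.8% higher and 25.7% lower). The median difference from control over the 67 genes was 0.08 in SWOP, 0.17 in RCO and 0.23 in RCS, against 0.04, 0.01 and -0.0 over all genes. All 5 SWOP arrays lay above all 5 controls for 11 genes and below for 2 (9.64% and 5.42% of all genes did so). All 5 RCO arrays lay above for 5 and below for 1 (5.81% and 2.71%), and all 5 RCS arrays above for 24 and below for 5 (23.3% and 16.9%). The 3 comparisons share the same 5 control arrays, so their results are not independent of each other. Without SWOP replicate 4 the SWOP count was 4, and without RCO replicate 3 or RCO replicate 5 the RCO count was 9 or 22. Calls over all probe sets moved the same way, to 2.2% without SWOP replicate 4, against 7.15% in SWOP with all arrays. In RCO they were 5.51% without replicate 3 and 17.7% without replicate 5, against 10.7% with all arrays.

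**Figure D1:**
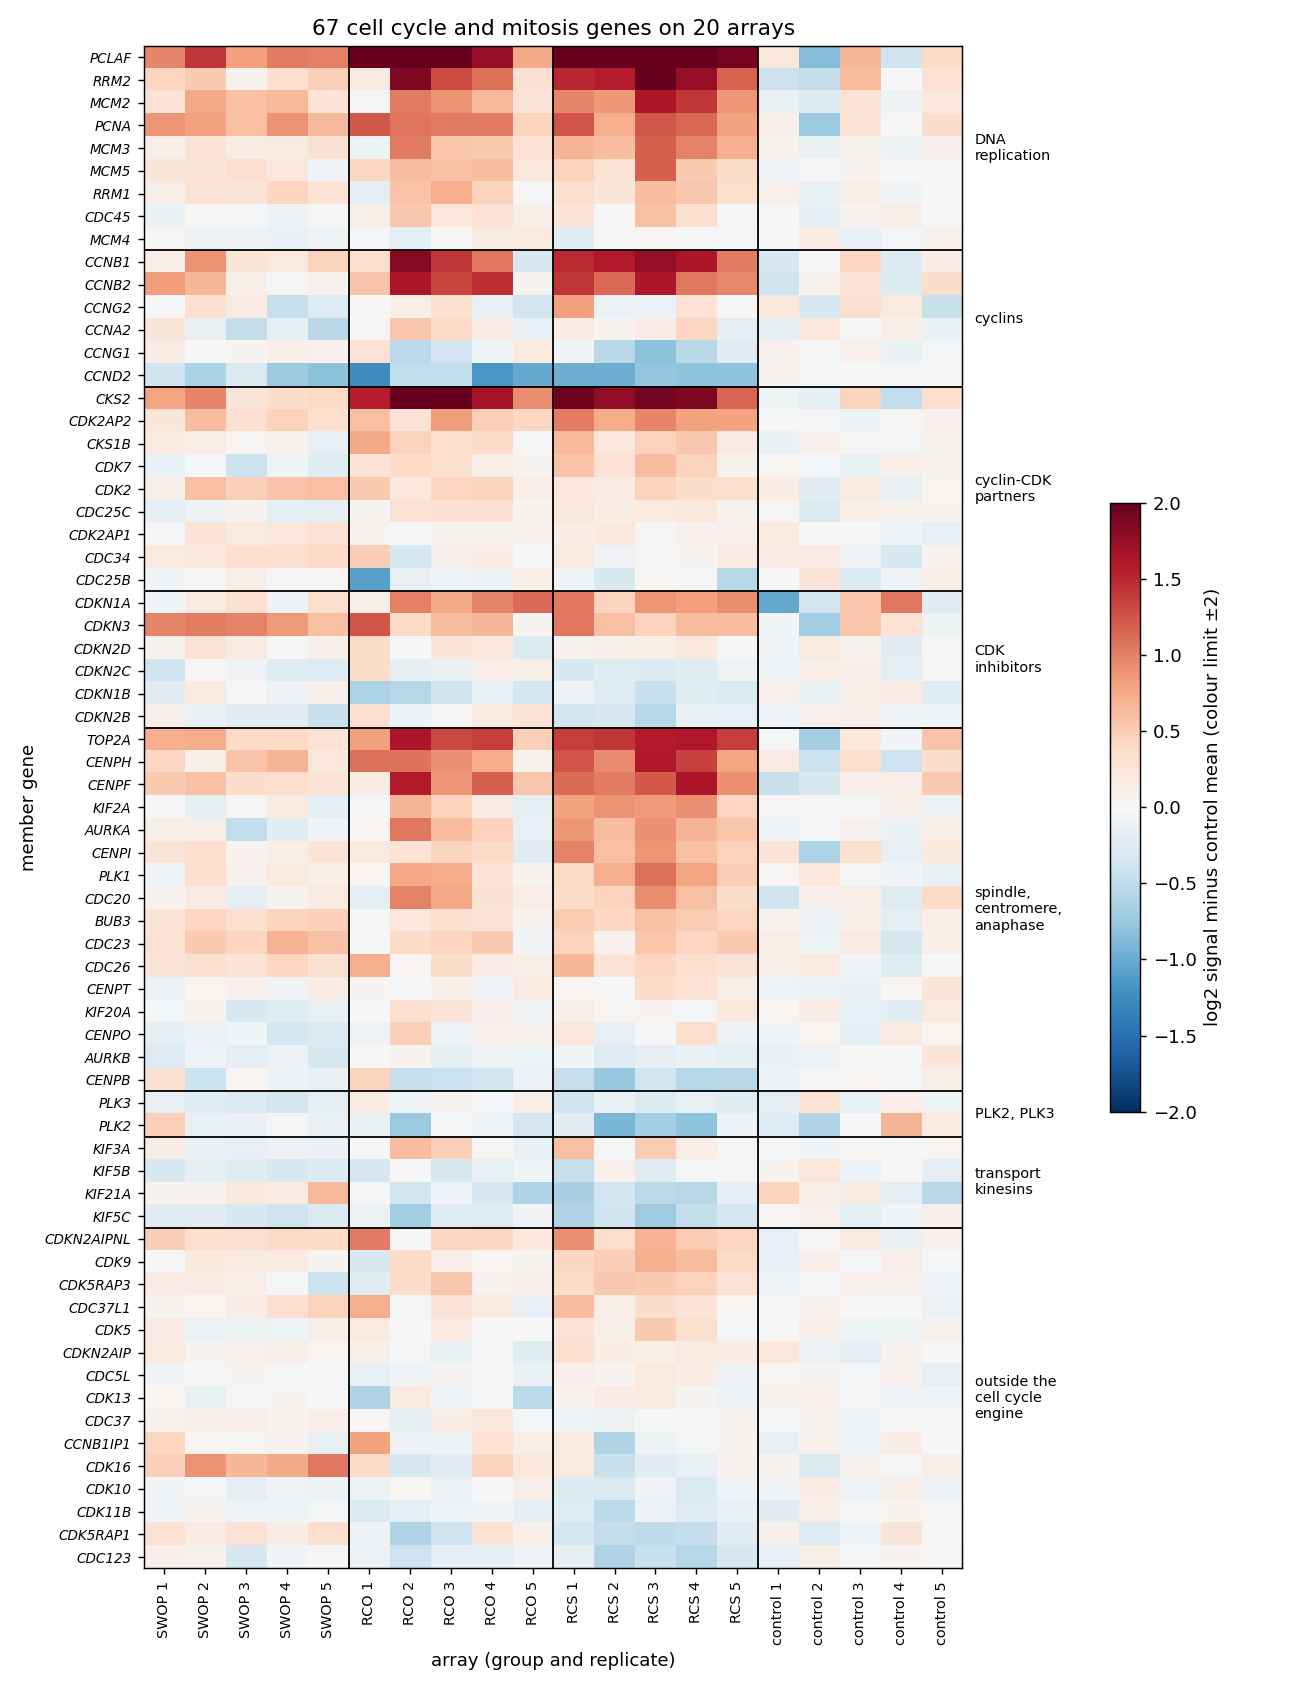
Log2 signal of the 67 genes minus the mean of the 5 controls, in the 20 arrays, with genes grouped by role (rows) and arrays by group (columns); red is higher and blue lower than the control mean, and colours end at a difference of 2 in either direction. Most DNA replication rows and part of the spindle rows are red in all RCS arrays and in RCO replicates 2, 3 and 4, and paler in SWOP; the inhibitor and kinesin rows are mixed.

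RCO hearts were not alike. The median of the 9 DNA replication genes, as a difference from the control mean, was 0.11, 1.03, 0.72, 0.61 and 0.25 in RCO replicates 1 to 5, against 0.68, 0.62, 1.2, 0.99 and 0.7 in RCS. It lay between 0.24 and 0.34 in SWOP and between -0.2 and 0.12 in control hearts. RCO replicates 2 and 3 therefore stood among the RCS arrays, and RCO replicates 1 and 5 among or below the SWOP arrays. The same order held for the 16 spindle, centromere and anaphase genes, whose medians were 0.04, 0.43, 0.44, 0.26 and 0.05 in RCO and 0.43 to 0.72 in RCS, against 0.08 to 0.19 in SWOP and -0.09 to 0.16 in control. Because of this, RCO results are also given without replicates 2 and 3, an alternative added after the data were seen; 8 of the 67 genes (11.9%) were then called against control. Over all probe sets, a wider base than the genes with 1 symbol, 4.73% were called in this fit, against 10.7% with all arrays. With only RCO and control arrays fitted, 7 of the 67 genes (10.4%) were called, where 2.35% of all probe sets were. CCNB2, CENPF, CENPH, RRM2, CDK2, CKS1B and CDKN1B lost their RCO call in that limma fit (adjusted p 0.072 to 0.13).

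Macrophage, fibroblast and cardiomyocyte markers moved along the same arrays. Median differences of macrophage markers from the control mean were 0.24, 1.5, 0.93, 0.42 and 0.3 in RCO replicates 1 to 5. Those of fibroblast markers were -0.22, 1.29, 1.45, 0.36 and 0.18. Endothelial medians, at -0.48, -0.03, -0.03, 0.02 and 0.08, did not follow this order, nor did those of neutrophil markers. Beside the counts below, 4.66% of all genes rose and 3.5% fell in SWOP, 11.3% and 4.26% in RCO, and 28.8% and 25.7% in RCS. Of 13 measured macrophage and monocyte markers 1 rose in SWOP, 5 in RCO and 8 in RCS, and none fell. Their summed signal spanned 5003 to 7275 in SWOP hearts, 6608 to 18797 in RCO hearts and 10892 to 14967 in RCS hearts, against 4214 to 6841 in control hearts. Of 10 measured fibroblast markers 0 were called in SWOP, 3 rose in RCO and 7 in RCS, and none fell. Their summed signal spanned 19023 to 22935 in SWOP hearts, 15874 to 53392 in RCO hearts and 33583 to 58161 in RCS hearts, against 12901 to 22871 in control hearts. Without RCO replicates 2 and 3 the RCO counts were 2 macrophage and 1 fibroblast markers. The macrophage count in SWOP was 0 without control replicate 1 or 2 or SWOP replicate 2, 4 or 5. In RCO it was 3 without control replicate 1, 2 or 3 or RCO replicate 2 or 3, and 8 without RCO replicate 5. The fibroblast count in RCO was 5 without RCO replicate 1. Of 12 measured cardiomyocyte markers 0 were called in SWOP, 2 fell in RCO, and 8 fell and 1 rose in RCS. Their summed signal spanned 211715 to 224862 in SWOP hearts, 191162 to 209705 in RCO hearts and 168252 to 200555 in RCS hearts, against 218349 to 226009 in control hearts. Cardiomyocyte markers were thus bright in every array, which fits the label heart. Of 7 smooth muscle and pericyte markers 2 rose in SWOP, 1 in RCO and 4 in RCS. Of 12 endothelial markers 0 were called in SWOP, 1 fell in RCO and 1 rose in RCS. Of 9 lymphocyte markers 0 were called in SWOP and RCO and 2 fell in RCS. Of 4 neutrophil markers 1 fell in SWOP, 0 were called in RCO and 1 fell in RCS. At an unadjusted limma p under 0.05, the lists with 0 calls held 4 fibroblast, 0 cardiomyocyte, 1 endothelial and 0 lymphocyte markers in SWOP. In RCO they held 4 lymphocyte and 1 neutrophil markers. Other than the neutrophil count of 1 in RCS, the counts of 1 or 2 in these 4 lists changed when single arrays were left out. The deposited signals hold no zeros and no detection calls, so no marker can be given as absent. The gap between the 3' and 5' actin control probe sets, a measure of RNA integrity, spanned 1.22 to 1.7 in SWOP hearts, 0.78 to 1.69 in RCO hearts and 0.51 to 0.73 in RCS hearts, against 1.24 to 1.96 in control hearts. The gapdh gap spanned -0.17 to -0.01 in SWOP, -0.23 to 0.08 in RCO, -0.06 to 0.19 in RCS and -0.16 to -0.06 in control. For ef1a it spanned -0.03 to 0.1, -0.14 to 0.0, -0.2 to -0.05 and -0.06 to 0.03 in the same order. The actin and gapdh gaps thus moved in opposite directions in RCS. In RCO replicates 1 to 5 the actin gap was 1.36, 0.78, 0.79, 1.69 and 1.12. It was thus lowest, and nearest the RCS arrays, in RCO replicates 2 and 3, the 2 that stood among the RCS arrays above. The part of these shifts in the changes described next was not tested, and in tissue RNA more cells of a type and more RNA per cell cannot be told apart.

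**Figure D2:**
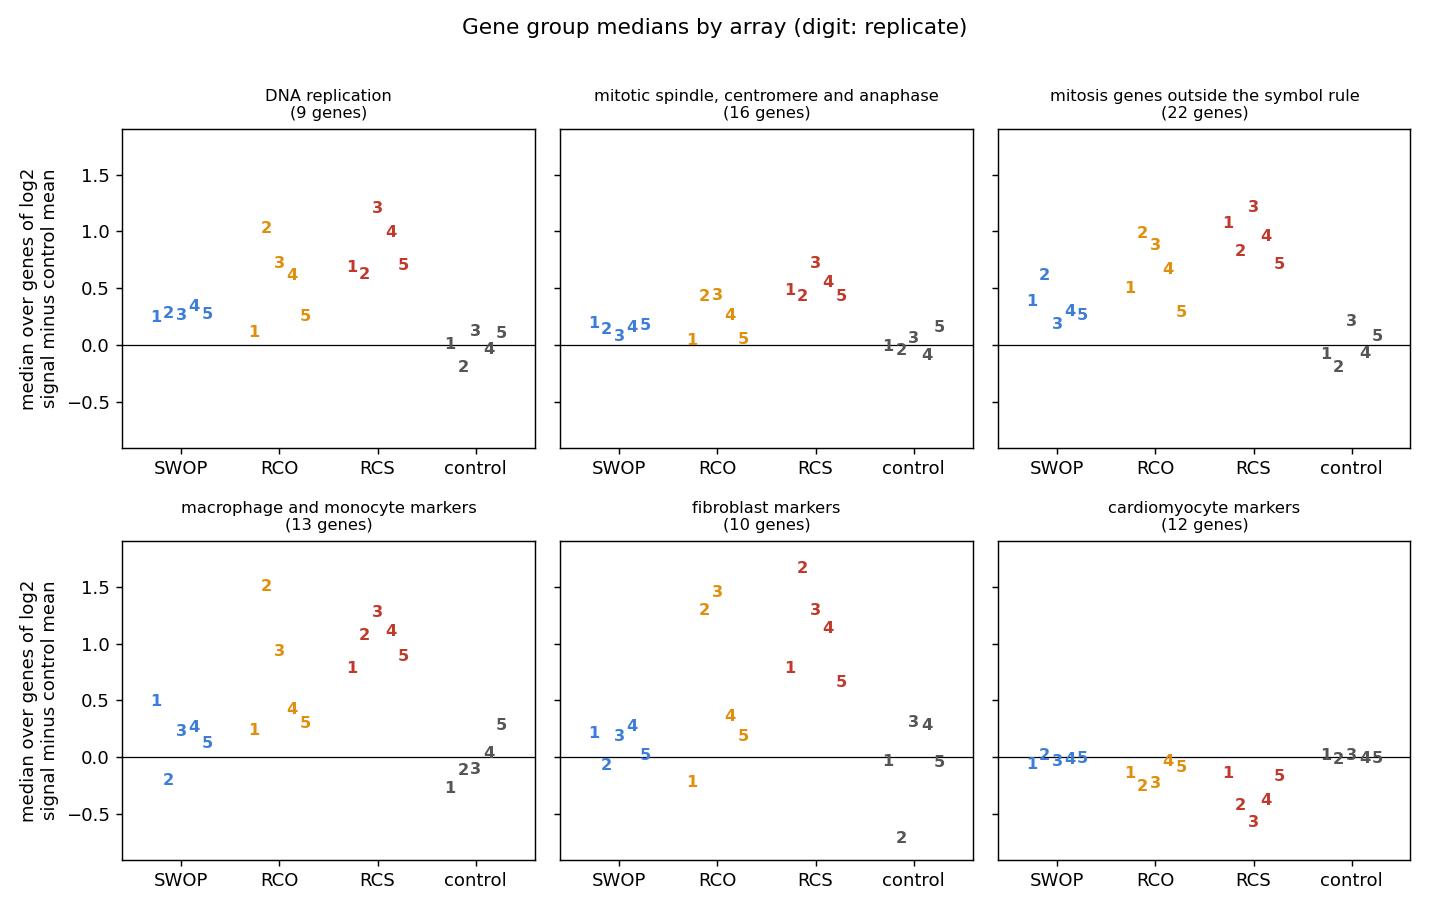
Median log2 difference from the control mean in each of the 20 arrays for 6 gene groups: DNA replication (9 genes), spindle, centromere and anaphase (16), mitosis genes outside the symbol rule (22), macrophage (13), fibroblast (10) and cardiomyocyte markers (12); digits are replicate numbers. In the DNA replication panel RCO replicates 2, 3 and 4 lie at 1.03, 0.72 and 0.61, near the RCS arrays, and RCO replicates 1 and 5 at 0.11 and 0.25.

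Genes of DNA replication rose in RCS. Of 9 measured, 2 rose in SWOP, 4 in RCO and 7 in RCS, none fell, and the median difference from control was 0.27, 0.49 and 0.84 in those 3 groups. The shares that rose were 22.2%, 44.4% and 77.8%, against 4.66%, 11.3% and 28.8% of all genes. Without RCO replicates 2 and 3 the RCO count was 2. The pattern was weaker in 25 other measured replication and S phase genes, described further below. Of those, 10 rose and 5 fell in RCS, with a median difference of 0.19. PCLAF, the factor that binds the PCNA clamp, measured 7.07, 7.52, 6.91, 7.13 and 7.1 in SWOP, 8.12, 8.3, 8.19, 7.85 and 6.85 in RCO, 8.83, 8.33, 8.81, 8.52 and 8.01 in RCS, and 6.31, 5.22, 6.75, 5.69 and 6.48 in control hearts. All 15 arrays of the ischemic groups lay above all 5 controls, and RCO replicate 5 was the lowest of the 15. PCLAF rose by 1.06 ± 0.27 (2.08-fold, adjusted p = 0.028) in SWOP, by 1.77 ± 0.27 (3.42-fold, adjusted p = 0.0011) in RCO and by 2.41 ± 0.27 (5.31-fold, adjusted p = 2.9e-06) in RCS. Leaving out control replicate 2 or 4 or SWOP replicate 2, 4 or 5 ended the SWOP call, at adjusted p between 0.058 and 0.08. A second, dimmer PCLAF probe set changed by -0.07, 0.08 and 0.06 in SWOP, RCO and RCS and was not called, and with the mean of both probe sets the SWOP difference was 0.49 (adjusted p = 0.052).

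PCNA, the ring that holds DNA polymerase on its template, measured 8.93, 8.85, 8.65, 8.94 and 8.69 in SWOP, 9.29, 9.12, 9.09, 9.08 and 8.5 in RCO, 9.31, 8.78, 9.29, 9.19 and 8.86 in RCS, and 8.15, 7.31, 8.33, 8.05 and 8.4 in control hearts. Again no array of the ischemic groups reached down to a control, and the ischemic groups overlapped each other. PCNA rose by 0.76 ± 0.18 (1.7-fold, adjusted p = 0.018) in SWOP, 0.97 ± 0.18 (1.96-fold, adjusted p = 0.0026) in RCO and 1.04 ± 0.18 (2.05-fold, adjusted p = 0.00013) in RCS. Without SWOP replicate 4 its SWOP call was lost (adjusted p = 0.05). RRM2, the subunit of ribonucleotide reductase made mainly in S phase, measured 6.93, 7.02, 6.57, 6.83 and 6.97 in SWOP, 6.66, 8.34, 7.8, 7.59 and 6.8 in RCO, 8.0, 8.07, 8.53, 8.23 and 7.68 in RCS, and 6.07, 6.02, 7.12, 6.48 and 6.78 in control hearts. RCO arrays ran from within the SWOP range to within the RCS range, while all RCS arrays lay above all controls and all SWOP arrays. RRM2 rose by 0.94 ± 0.26 (1.92-fold, adjusted p = 0.027) in RCO and 1.61 ± 0.26 (3.05-fold, adjusted p = 9.7e-05) in RCS, and its SWOP difference of 0.37 (adjusted p = 0.39) was not called. Its RCO call was lost without control replicate 1, 2 or 4 or RCO replicate 2, 3 or 4, with adjusted p between 0.051 and 0.081, and its RCO difference was 0.52 (adjusted p = 0.24) without RCO replicates 2 and 3 together. RRM1, the large subunit of the same enzyme, rose by 0.42 (1.34-fold, adjusted p = 0.016) in RCS and was not called in SWOP, at 0.27 (adjusted p = 0.21), or in RCO, at 0.31 (adjusted p = 0.14).

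Of the 4 measured MCM helicase subunits 3 rose in RCS. MCM2 measured 6.76, 7.23, 7.07, 7.12 and 6.75 in SWOP, 6.5, 7.52, 7.37, 7.13 and 6.73 in RCO, 7.45, 7.34, 8.1, 7.9 and 7.35 in RCS, and 6.33, 6.21, 6.77, 6.38 and 6.69 in control hearts. All RCS arrays stood above all SWOP and all control arrays, and RCO replicates 1 and 5 lay inside the control range. MCM2 rose by 1.15 ± 0.19 (2.22-fold, adjusted p = 8.9e-05) in RCS, with 0.51 (adjusted p = 0.094) in SWOP and 0.57 (adjusted p = 0.054) in RCO not called. Its other probe sets were not called, at 0.12 (adjusted p = 0.26) and -0.13 (adjusted p = 0.18) in RCS, and the mean of its probe sets rose by 0.38 (adjusted p = 0.00078). MCM3 measured 5.53, 5.69, 5.56, 5.59 and 5.71 in SWOP, 5.3, 6.44, 5.96, 5.93 and 5.69 in RCO, 6.09, 6.03, 6.6, 6.4 and 6.11 in RCS, and 5.46, 5.28, 5.47, 5.31 and 5.51 in control hearts. MCM5 measured 6.94, 6.94, 7.02, 6.92 and 6.63 in SWOP, 7.12, 7.31, 7.29, 7.31 and 6.92 in RCO, 7.16, 6.97, 7.9, 7.22 and 7.07 in RCS, and 6.64, 6.71, 6.76, 6.69 and 6.7 in control hearts. MCM3 rose by 0.84 (1.79-fold, adjusted p = 0.0002) in RCS, with all 5 RCS arrays above all controls. MCM5 rose by 0.49 (1.4-fold, adjusted p = 0.022) in RCO and 0.56 (1.48-fold, adjusted p = 0.0019) in RCS. RCS replicate 3 was far above the other RCS arrays. The RCO call was lost without RCO replicate 3 (adjusted p = 0.061), without RCO replicates 2 and 3 (0.42, adjusted p = 0.13) and with the mean of all probe sets (adjusted p = 0.064). MCM4 did not pass in any comparison on its brightest probe set, at -0.05 (adjusted p = 0.64) in RCS, but its dimmer probe set rose by 0.57 in RCO (adjusted p = 0.017) and 0.92 in RCS (adjusted p = 6.4e-05). CDC45, the partner of the MCM ring at the fork, differed by 0.26 (adjusted p = 0.12) in RCO and 0.23 (adjusted p = 0.082) in RCS and was not called. Without RCO replicate 1 the RCO count of this group was 7 of 9, and without RCO replicate 3 it was 2.

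**Figure D3:**
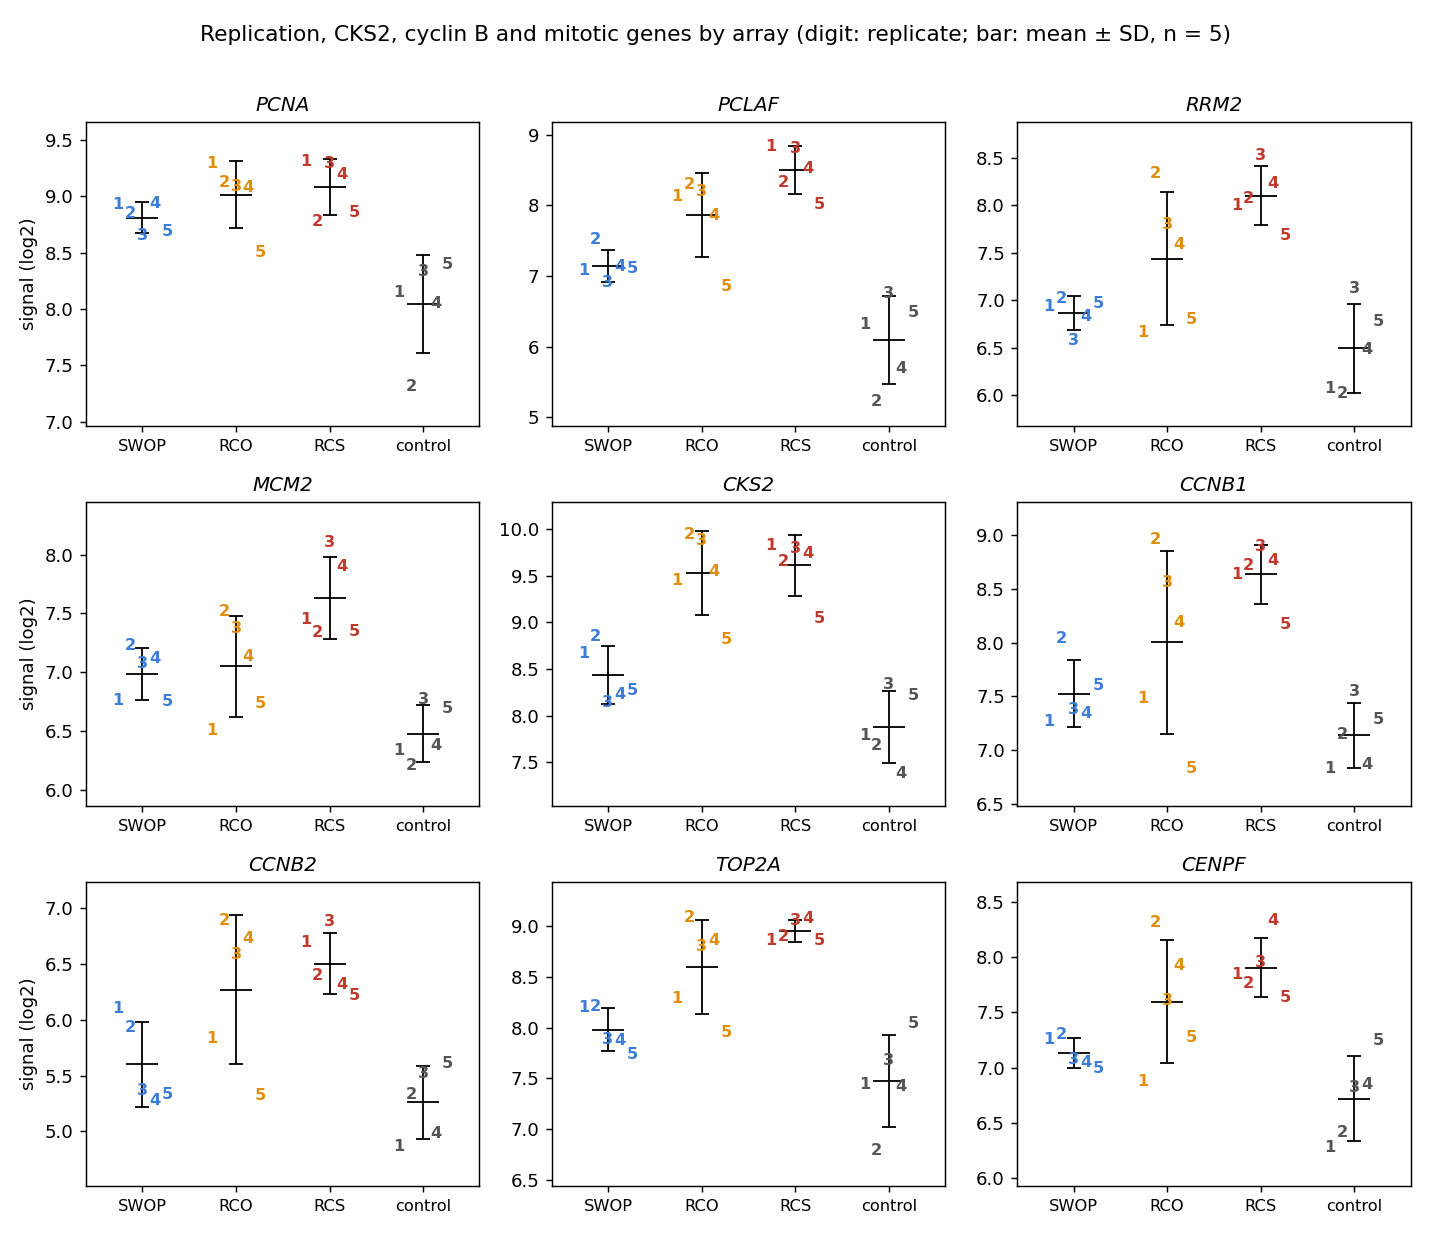
Log2 signal of 9 genes of DNA replication and mitosis in every array, by group; digits are replicate numbers and bars the mean ± SD (n = 5). For PCNA and PCLAF all arrays of SWOP, RCO and RCS lie above all controls, whereas for RRM2, MCM2, CCNB1, CCNB2 and CENPF the RCO arrays run from near the controls up to the RCS level.

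Among the partners of the cyclin-CDK engine, CKS2 changed most. Of 9 measured members of this group 2 rose in SWOP, 4 in RCO and 5 in RCS, and none fell. These shares were 22.2%, 44.4% and 55.6%, against 4.66%, 11.3% and 28.8% of all genes. Without RCO replicates 2 and 3 the RCO count was 2. CKS2, a small subunit that docks CDKs on their substrates, measured 8.67, 8.85, 8.14, 8.23 and 8.27 in SWOP, 9.45, 9.94, 9.88, 9.54 and 8.81 in RCO, 9.82, 9.65, 9.79, 9.74 and 9.04 in RCS, and 7.79, 7.68, 8.33, 7.38 and 8.21 in control hearts. Every RCO and RCS array lay above every control, 4 of 5 RCO arrays lay above all SWOP arrays, and SWOP arrays overlapped the controls. CKS2 rose by 1.65 ± 0.22 (3.13-fold, adjusted p = 0.00028) in RCO and 1.73 ± 0.22 (3.32-fold, adjusted p = 7.4e-06) in RCS, and its 0.55 (adjusted p = 0.11) in SWOP was not called. It kept its RCO call without RCO replicates 2 and 3, at 1.39 (adjusted p = 0.0034). Its relative CKS1B measured 8.9, 8.83, 8.72, 8.77 and 8.54 in SWOP, 9.45, 9.16, 9.04, 9.09 and 8.67 in RCO, 9.35, 8.93, 9.16, 9.24 and 8.87 in RCS, and 8.57, 8.79, 8.7, 8.67 and 8.77 in control hearts. CKS1B rose by 0.38 (1.3-fold, adjusted p = 0.043) in RCO and 0.41 (1.33-fold, adjusted p = 0.0081) in RCS. The RCO call of CKS1B was lost on leaving out any control, RCO replicate 1, 2, 3 or 4, SWOP replicate 2, 3 or 4, or RCS replicate 4, with adjusted p between 0.051 and 0.093.

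CDK2AP2, which is named for its association with CDK2, had the smallest p of the 67 genes in RCS and measured 8.66, 9.04, 8.76, 8.88 and 8.76 in SWOP, 9.02, 8.69, 9.26, 8.9 and 8.84 in RCO, 9.45, 9.16, 9.4, 9.23 and 9.23 in RCS, and 8.43, 8.4, 8.32, 8.45 and 8.51 in control hearts. All 15 arrays of the ischemic groups were above all 5 controls. CDK2AP2 rose by 0.4 ± 0.1 (1.32-fold, adjusted p = 0.021) in SWOP, 0.52 ± 0.1 (1.43-fold, adjusted p = 0.0029) in RCO and 0.87 ± 0.1 (1.83-fold, adjusted p = 2.3e-06) in RCS. Leaving out control replicate 2 or SWOP replicate 2 or 4 ended the SWOP call, at adjusted p between 0.052 and 0.06. CDK2, the kinase of S phase entry, measured 7.66, 8.12, 8.0, 8.09 and 8.12 in SWOP, 8.05, 7.73, 7.96, 7.97 and 7.65 in RCO, 7.73, 7.69, 7.97, 7.88 and 7.85 in RCS, and 7.67, 7.31, 7.71, 7.37 and 7.56 in control hearts on its brightest probe set. It rose by 0.47 (1.39-fold, adjusted p = 0.016), 0.35 (1.27-fold, adjusted p = 0.041) and 0.3 (1.23-fold, adjusted p = 0.025) in SWOP, RCO and RCS. However, 2 further CDK2 probe sets were not called in any of the 3. With the mean of all its probe sets the differences were 0.20 (adjusted p = 0.1) in SWOP and 0.01 (adjusted p = 0.88) in RCS, with adjusted p = 0.14 in RCO. Its RCO call was lost without control replicate 2, 4 or 5, RCO replicate 1, 3 or 4, SWOP replicate 3 or RCS replicate 4 (adjusted p 0.05 to 0.11). Its RCS call was lost without control replicate 2 or 4 or RCS replicate 3 or 4 (0.052 to 0.077). CDK7, the kinase that activates other CDKs and also serves transcription, measured 6.47, 6.58, 6.18, 6.52 and 6.36 in SWOP, 6.86, 7.01, 6.91, 6.72 and 6.66 in RCO, 7.18, 6.89, 7.23, 7.05 and 6.69 in RCS, and 6.63, 6.57, 6.45, 6.71 and 6.67 in control hearts. CDK7 rose by 0.4 (1.32-fold, adjusted p = 0.0037) in RCS, with 4 of 5 RCS arrays above all controls. CDC25B, CDC25C, CDC34 and CDK2AP1 were not called against control.

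The B-type cyclins, which drive entry into mitosis, rose in RCS. CCNB1 measured 7.27, 8.04, 7.38, 7.34 and 7.6 in SWOP, 7.48, 8.96, 8.56, 8.19 and 6.83 in RCO, 8.63, 8.72, 8.89, 8.76 and 8.17 in RCS, and 6.83, 7.15, 7.55, 6.87 and 7.29 in control hearts. RCS arrays lay above all SWOP and all control arrays, while RCO replicate 2 was the highest of all 20 arrays and RCO replicate 5 stood with the lowest. CCNB1 rose by 1.5 ± 0.29 (2.82-fold, adjusted p = 0.00038) in RCS, and its 0.87 (adjusted p = 0.056) in RCO missed the threshold. CCNB2 measured 6.1, 5.93, 5.37, 5.28 and 5.33 in SWOP, 5.83, 6.89, 6.59, 6.73 and 5.32 in RCO, 6.69, 6.4, 6.88, 6.32 and 6.22 in RCS, and 4.86, 5.33, 5.52, 4.98 and 5.61 in control hearts. In RCO the replicates were spread, 3 of them within or above the RCS range and replicate 5 within the control range. CCNB2 rose by 1.01 ± 0.25 (2.02-fold, adjusted p = 0.016) in RCO and 1.24 ± 0.25 (2.37-fold, adjusted p = 0.00067) in RCS; without RCO replicates 2 and 3 its RCO difference was 0.70 (adjusted p = 0.14). CCNA2, the cyclin of S and G2 phase, was not called in any comparison and differed by 0.12 (adjusted p = 0.54) in RCS.

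CCND2, a D-type cyclin of the entry into the cycle, went the other way. It measured 9.74, 9.51, 9.85, 9.42 and 9.32 in SWOP, 8.9, 9.64, 9.64, 8.97 and 9.13 in RCO, 9.17, 9.16, 9.37, 9.34 and 9.33 in RCS, and 10.2, 10.12, 10.15, 10.12 and 10.11 in control hearts. The 5 controls lay between 10.11 and 10.2, and all 15 arrays of the ischemic groups lay below them. CCND2 fell by 0.57 ± 0.13 (1.49-fold, adjusted p = 0.018) in SWOP, 0.88 ± 0.13 (1.85-fold, adjusted p = 0.00081) in RCO and 0.87 ± 0.13 (1.82-fold, adjusted p = 4.9e-05) in RCS. The fall in RCO was 1.14 (adjusted p = 2e-05) without replicates 2 and 3, the 2 highest RCO values, and the SWOP call was lost without SWOP replicate 4 (adjusted p = 0.052) or 5 (adjusted p = 0.051). CCNG1, a G-type cyclin, fell by 0.45 (1.36-fold, adjusted p = 0.015) in RCS, where its level was 13.17, 12.66, 12.4, 12.66 and 12.97, against 13.31, 13.19, 13.31, 13.08 and 13.2 in control hearts. RCS replicate 1 lay within the control range, and without RCS replicate 3 the call was lost (adjusted p = 0.055). CCNG2 was not called in any comparison. Of the 6 cyclins 0 rose and 1 fell in SWOP, 1 rose and 1 fell in RCO, and 2 rose and 2 fell in RCS. The RCS shares were 33.3% each way, near the 28.8% higher and 25.7% lower of all genes.

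The spindle, centromere and anaphase group had 16 measured members, of which 2 rose in SWOP, 3 rose in RCO, and 11 rose and 1 fell in RCS. Its median difference from control was 0.1, 0.23 and 0.52 in those groups, and without RCO replicates 2 and 3 only TOP2A rose in RCO. The shares that rose with all arrays were 12.5%, 18.8% and 68.8%, against 4.66%, 11.3% and 28.8% of all genes. TOP2A, the topoisomerase that untangles copied chromosomes, measured 8.2, 8.21, 7.88, 7.87 and 7.74 in SWOP, 8.29, 9.09, 8.8, 8.86 and 7.95 in RCO, 8.86, 8.9, 9.06, 9.08 and 8.86 in RCS, and 7.44, 6.79, 7.68, 7.42 and 8.04 in control hearts. RCS arrays formed a narrow band above all SWOP and control arrays, and 4 of 5 RCO arrays lay above all controls. TOP2A rose by 1.12 ± 0.2 (2.18-fold, adjusted p = 0.0024) in RCO and 1.48 ± 0.2 (2.79-fold, adjusted p = 1.7e-05) in RCS; its 0.51 (adjusted p = 0.12) in SWOP was not called. CENPF, a kinetochore protein made in G2 phase, measured 7.25, 7.3, 7.07, 7.05 and 6.99 in SWOP, 6.87, 8.31, 7.61, 7.92 and 7.27 in RCO, 7.84, 7.76, 7.95, 8.33 and 7.63 in RCS, and 6.28, 6.41, 6.82, 6.85 and 7.24 in control hearts. CENPH, a protein of the inner kinetochore, measured 6.49, 6.19, 6.65, 6.76 and 6.3 in SWOP, 7.19, 7.17, 6.99, 6.82 and 6.15 in RCO, 7.34, 7.03, 7.68, 7.45 and 6.87 in RCS, and 6.24, 5.66, 6.4, 5.67 and 6.44 in control hearts. CENPF rose by 0.88 (1.84-fold, adjusted p = 0.014) in RCO and 1.18 (2.27-fold, adjusted p = 0.00024) in RCS, and CENPH by 0.78 (1.72-fold, adjusted p = 0.019) and 1.19 (2.28-fold, adjusted p = 0.00015) in the same groups. Neither kept its RCO call without RCO replicates 2 and 3 (0.63, adjusted p = 0.1 for CENPF and 0.64, adjusted p = 0.13 for CENPH). CENPH also lost it without control replicate 2 or 4 or RCO replicate 3 (adjusted p 0.052 to 0.061). CENPI, another protein of the inner kinetochore, measured 5.59, 5.67, 5.4, 5.45 and 5.61 in SWOP, 5.51, 5.6, 5.78, 5.71 and 5.09 in RCO, 6.33, 5.94, 6.22, 5.92 and 5.8 in RCS, and 5.6, 4.71, 5.65, 5.17 and 5.54 in control hearts. It rose by 0.71 (1.63-fold, adjusted p = 0.0015) in RCS. Control replicate 2 was the lowest of the 20 arrays for CENPH and CENPI, and also for PCLAF, PCNA, RRM2, MCM2, MCM3 and TOP2A. For CCNB2 and CENPF the lowest was control replicate 1, and for CKS2 control replicate 4. Without control replicate 2 the gene group had 6 calls in SWOP, 10 in RCO and 40 in RCS, instead of 9, 14 and 44. Calls over all probe sets in SWOP fell from 7.15% to 2.36% without control replicate 2, and to 2.0% without control replicate 4.

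Both mitotic kinases AURKA and PLK1 rose in RCS, where AURKB did not pass. AURKA, the kinase of the spindle poles, measured 6.67, 6.66, 6.06, 6.33 and 6.5 in SWOP, 6.59, 7.61, 7.16, 7.01 and 6.38 in RCO, 7.42, 7.16, 7.46, 7.23 and 7.1 in RCS, and 6.5, 6.52, 6.64, 6.42 and 6.66 in control hearts. It rose by 0.73 (1.65-fold, adjusted p = 0.002) in RCS. Its second probe set rose by 0.96 in RCS (adjusted p = 0.00017). PLK1, the polo-like kinase that drives mitosis, measured 6.25, 6.64, 6.4, 6.51 and 6.43 in SWOP, 6.35, 7.08, 7.05, 6.57 and 6.36 in RCO, 6.7, 7.04, 7.41, 7.1 and 6.8 in RCS, and 6.33, 6.52, 6.27, 6.25 and 6.17 in control hearts. It rose by 0.7 (1.63-fold, adjusted p = 0.00084) in RCS. For both kinases the RCS arrays lay above all controls, and in RCO replicates 2 and 3 reached the RCS range while replicates 1 and 5 did not. AURKB, the kinase of the centromere and the midbody, lay between 7.68 and 7.88 in RCS, against 7.8 and 8.18 in control, a difference of -0.16 (adjusted p = 0.094). KIF2A, a kinesin that shortens microtubules at the spindle and in other cells, measured 6.98, 6.84, 7.04, 7.22 and 6.84 in SWOP, 6.98, 7.7, 7.48, 7.19 and 6.82 in RCO, 7.82, 7.92, 7.87, 7.94 and 7.44 in RCS, and 7.05, 7.0, 7.04, 7.12 and 6.9 in control hearts. It rose by 0.78 (1.71-fold, adjusted p = 0.00017) in RCS, with every RCS array above every control, and RCO replicate 1 lay among the controls and RCO replicate 5 below them.

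Regulators of the anaphase-promoting complex moved by smaller amounts. CDC23, a subunit of this ubiquitin ligase, measured 7.4, 7.64, 7.54, 7.81 and 7.69 in SWOP, 7.11, 7.48, 7.54, 7.63 and 7.05 in RCO, 7.55, 7.19, 7.67, 7.52 and 7.63 in RCS, and 7.24, 7.03, 7.28, 6.78 and 7.22 in control hearts. CDC23 rose by 0.51 (1.42-fold, adjusted p = 0.025) in SWOP, where all arrays lay above the controls, and by 0.4 (1.32-fold, adjusted p = 0.014) in RCS. Leaving out control replicate 2 or 4 or SWOP replicate 2, 4 or 5 ended the SWOP call (adjusted p 0.054 to 0.073). CDC26, another subunit, measured 10.24, 10.3, 10.25, 10.41 and 10.29 in SWOP, 10.7, 10.02, 10.35, 10.14 and 10.1 in RCO, 10.65, 10.26, 10.39, 10.32 and 10.24 in RCS, and 10.11, 10.16, 9.93, 9.73 and 9.97 in control hearts. It rose by 0.39 (1.31-fold, adjusted p = 0.0088) in RCS. BUB3, a spindle checkpoint protein that restrains the complex, measured 9.82, 10.0, 9.88, 10.01 and 10.04 in SWOP, 9.52, 9.78, 9.88, 9.82 and 9.62 in RCO, 10.08, 9.98, 10.15, 10.07 and 10.0 in RCS, and 9.62, 9.47, 9.67, 9.37 and 9.7 in control hearts. Its SWOP and RCS arrays lay above all controls, and RCO arrays reached into the control range. BUB3 rose by 0.38 (1.3-fold, adjusted p = 0.013) in SWOP and 0.49 (1.4-fold, adjusted p = 0.00011) in RCS. CDC20, the activator of the complex, rose by 0.54 (1.45-fold, adjusted p = 0.024) in RCS, at 7.14, 7.23, 7.72, 7.4 and 7.15 in RCS, against 6.4, 6.9, 6.92, 6.55 and 7.19 in control. The CDC20 groups overlapped, and the call was lost without control replicate 1 or 4 or RCS replicate 3 (adjusted p 0.059 to 0.076).

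CENPB, which binds centromere satellite DNA throughout the cycle, was the 1 member of the spindle group that fell in RCS. It measured 9.51, 8.77, 9.24, 9.11 and 9.07 in SWOP, 9.65, 8.74, 8.77, 8.83 and 9.1 in RCO, 8.75, 8.45, 8.83, 8.64 and 8.65 in RCS, and 9.1, 9.19, 9.24, 9.17 and 9.33 in control hearts. RCS arrays lay below all controls, whereas SWOP and RCO arrays spread on both sides of them. The fall was 0.54 (1.46-fold, adjusted p = 0.0057). CENPO, CENPT and KIF20A were not called against control. Leaving out RCO replicate 5 brought the number of spindle genes that rose in RCO to 5.

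**Figure D4:**
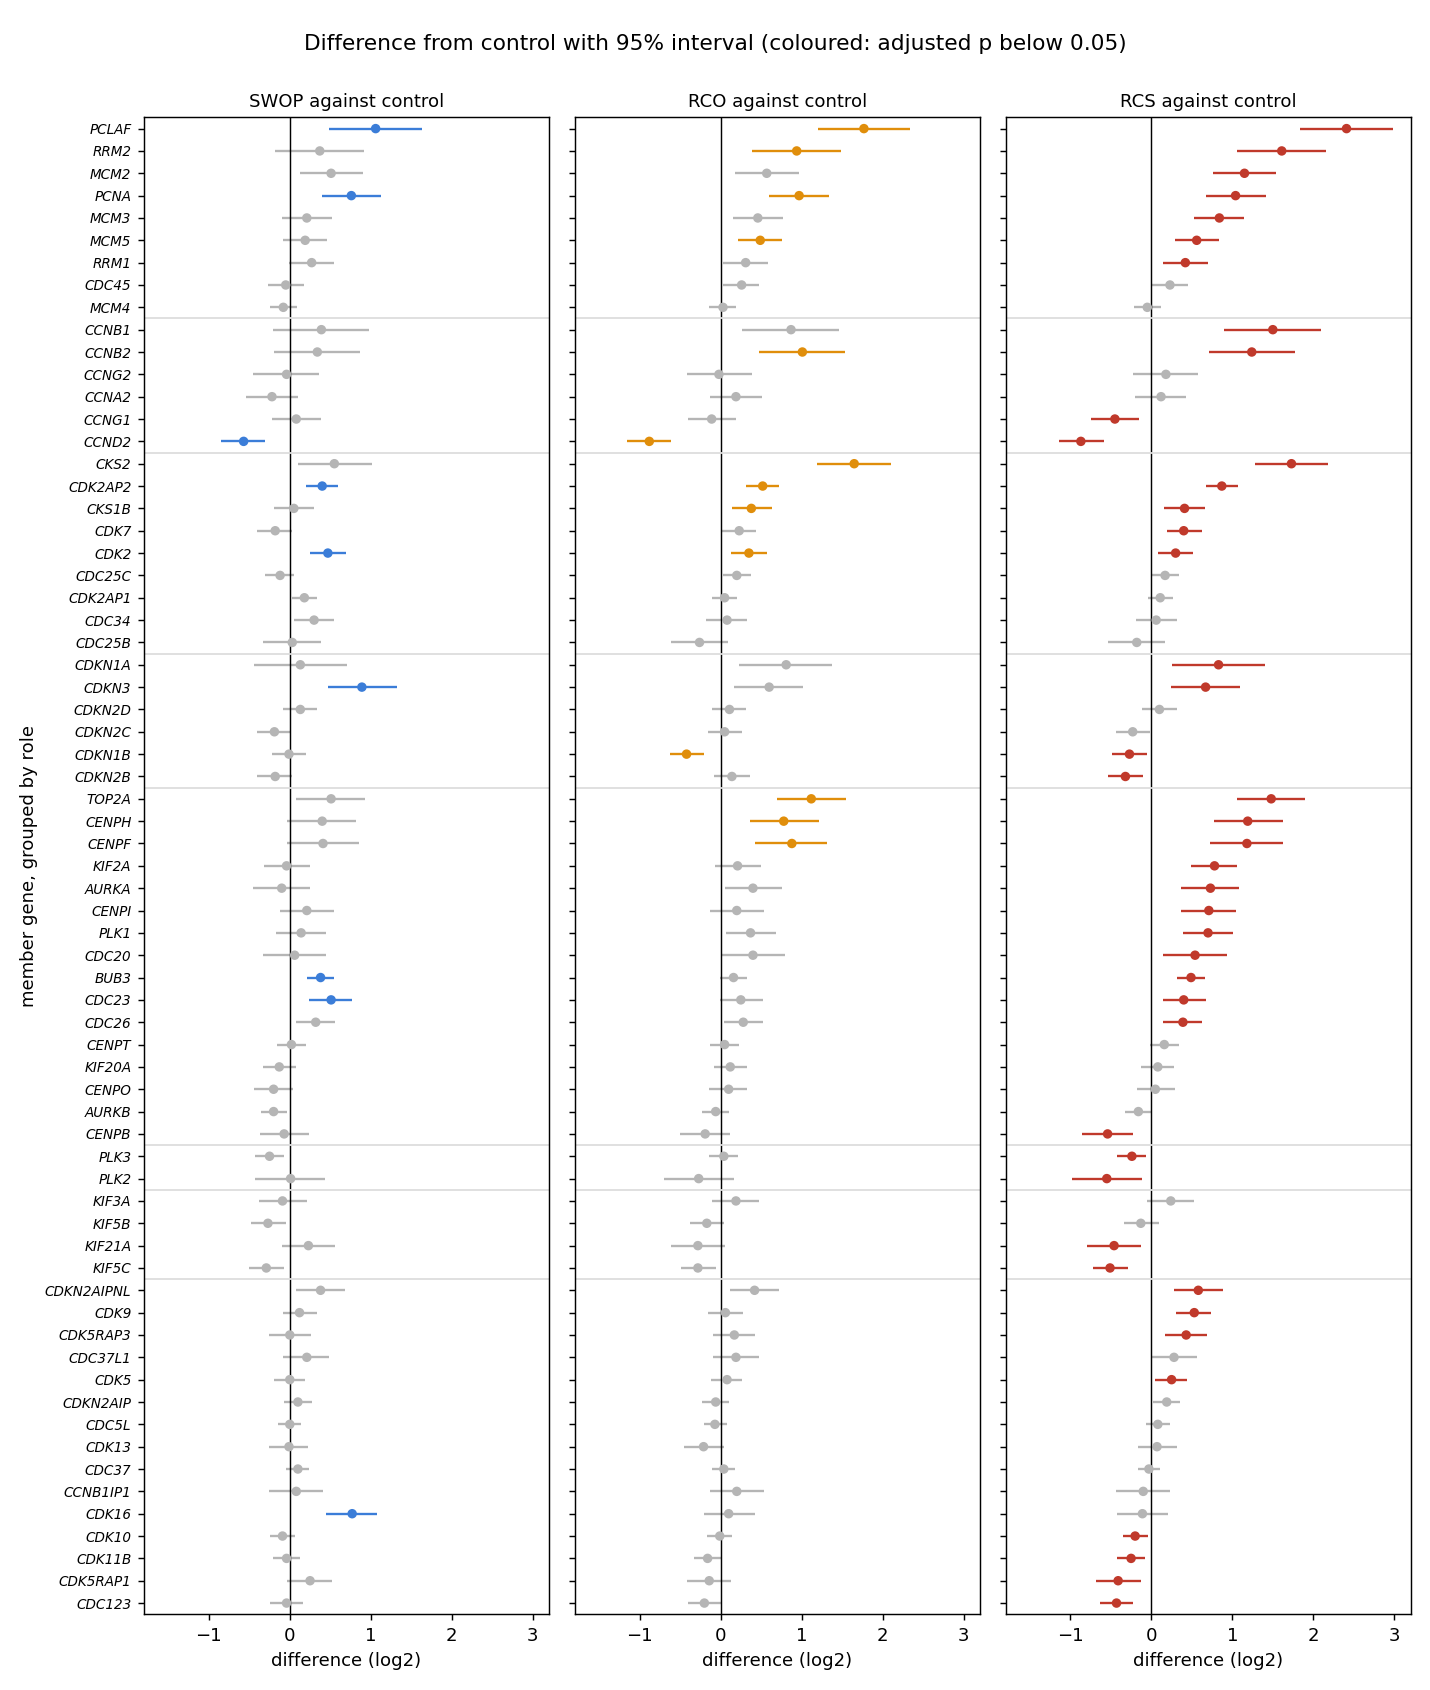
Difference from control in log2 signal with its 95% interval for each of the 67 genes, in 3 panels for SWOP, RCO and RCS; coloured points have an adjusted p below 0.05. The coloured points number 9, 14 and 44, and PCLAF at 1.06, 1.77 and 2.41 has the largest difference in each panel.

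CDK inhibitors did not move as 1 group. Of 6 measured, 1 rose in SWOP, 1 fell in RCO, and 2 rose and 2 fell in RCS. The RCS shares were 33.3% each way, near the 28.8% higher and 25.7% lower of all genes. Without RCO replicates 2 and 3 the RCO count was 0. CDKN1A, a CDK inhibitor induced by stress, measured 8.79, 9.04, 9.18, 8.76 and 9.2 in SWOP, 9.0, 9.87, 9.62, 9.84 and 10.0 in RCO, 9.91, 9.3, 9.75, 9.68 and 9.79 in RCS, and 7.84, 8.49, 9.42, 9.91 and 8.64 in control hearts. Controls spread from 7.84 in replicate 1 to 9.91 in replicate 4, so that every group overlapped them. CDKN1A rose by 0.83 (1.77-fold, adjusted p = 0.019) in RCS, and a difference of similar size in RCO, 0.81 (adjusted p = 0.063), was not called. Without control replicate 1 or 2 the RCS call was lost, at adjusted p = 0.062 or 0.051. CDKN1B, an inhibitor that keeps resting cells out of the cycle, measured 8.78, 9.17, 8.99, 8.89 and 9.09 in SWOP, 8.38, 8.43, 8.6, 8.83 and 8.65 in RCO, 8.9, 8.74, 8.55, 8.75 and 8.71 in RCS, and 9.08, 8.87, 9.11, 9.16 and 8.76 in control hearts. CDKN1B fell by 0.42 (1.34-fold, adjusted p = 0.013) in RCO and by 0.27 (1.2-fold, adjusted p = 0.038) in RCS, and was not called in SWOP, at -0.01 (adjusted p = 0.95). The RCO fall was 0.38 (adjusted p = 0.076) without RCO replicates 2 and 3, and the RCS call was lost without control replicate 1, 3 or 4 or RCS replicate 2, 3, 4 or 5 (adjusted p 0.056 to 0.1). The mean of its probe sets gave -0.18 (adjusted p = 0.061) in RCS.

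CDKN3, a phosphatase that switches off CDKs by removing an activating phosphate and whose transcript in cultured human cells peaks in mitosis, measured 8.3, 8.34, 8.32, 8.18 and 7.93 in SWOP, 8.58, 7.7, 7.96, 7.99 and 7.37 in RCO, 8.37, 7.92, 7.76, 7.96 and 7.94 in RCS, and 7.27, 6.64, 7.87, 7.61 and 7.22 in control hearts. SWOP arrays lay above all controls, and control replicate 2 was the lowest of the 20 arrays. CDKN3 rose by 0.89 ± 0.2 (1.86-fold, adjusted p = 0.017) in SWOP and 0.67 ± 0.2 (1.59-fold, adjusted p = 0.012) in RCS, with 0.6 (adjusted p = 0.064) in RCO not called. CDKN2B, an inhibitor of the CDK4 and CDK6 kinases, fell by 0.32 (1.24-fold, adjusted p = 0.018) in RCS, where it measured 4.83, 4.89, 4.65, 5.08 and 5.05, against 5.15, 5.3, 5.32, 5.15 and 5.16 in control hearts. These RCS arrays lay below all controls, and the call was lost without RCS replicate 3 (adjusted p = 0.061). CDKN2C and CDKN2D were not called against control.

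**Figure D5:**
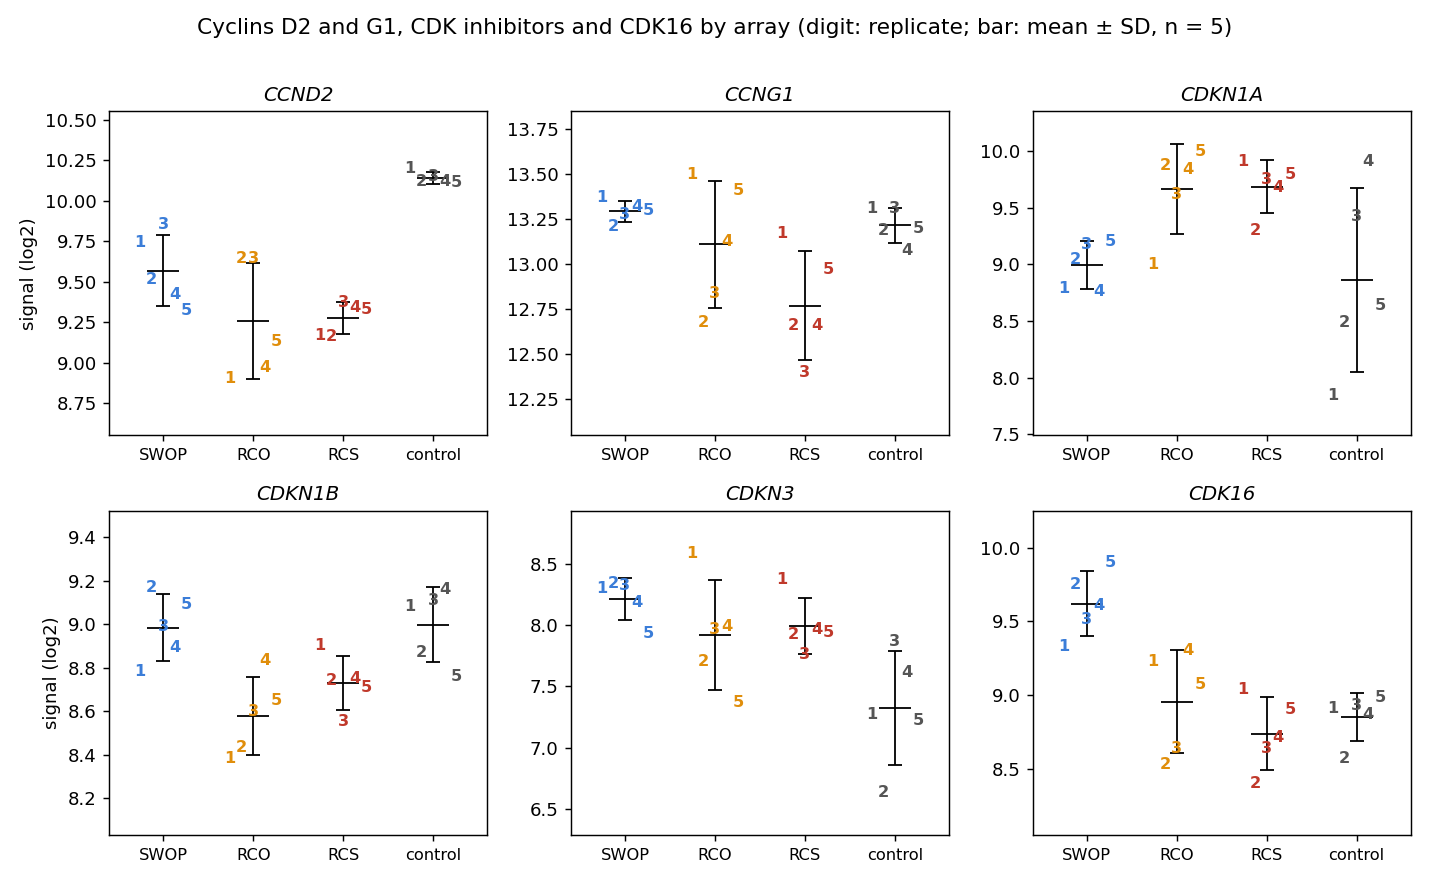
Log2 signal of CCND2, CCNG1, CDKN1A, CDKN1B, CDKN3 and CDK16 in every array, by group; digits are replicate numbers and bars the mean ± SD (n = 5). All CCND2 values of SWOP, RCO and RCS lie below the 5 controls, CDKN1A controls spread from 7.84 to 9.91, and CDK16 is highest in SWOP, with all 5 SWOP arrays above the 15 others.

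PLK2 and PLK3, polo-like kinases that respond to stress rather than drive mitosis, both fell in RCS. PLK2 fell by 0.55 (1.46-fold, adjusted p = 0.039), with 8.5, 7.8, 8.03, 7.91 and 8.61 in RCS, against 8.46, 8.11, 8.71, 9.4 and 8.9 in control. PLK3 fell by 0.24 (1.18-fold, adjusted p = 0.029), with 6.23, 6.48, 6.37, 6.48 and 6.43 in RCS, against 6.46, 6.91, 6.49, 6.77 and 6.55 in control. Both ranges overlapped the controls. The PLK2 call was lost without control replicate 3, 4 or 5 or RCS replicate 2, 3 or 4 (adjusted p 0.057 to 0.13). The PLK3 call was lost without control replicate 2 or 4 or RCS replicate 1 or 3 (0.056 to 0.099), and with the mean of its probe sets it was missed too, at -0.17 (adjusted p = 0.067).

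Of 4 kinesins of cargo transport, 2 fell in RCS and 0 were called in SWOP or RCO by limma, where 2 and 1 had an unadjusted p under 0.05. Of all genes 25.7% fell in RCS. KIF5C, a heavy chain best known from neurons, measured 5.23, 5.21, 5.13, 5.02 and 5.16 in SWOP, 5.32, 4.74, 5.19, 5.18 and 5.37 in RCO, 4.84, 5.04, 4.73, 4.96 and 5.09 in RCS, and 5.48, 5.53, 5.25, 5.39 and 5.54 in control hearts. It fell by 0.51 (1.42-fold, adjusted p = 0.00064) in RCS, where all arrays lay below all controls. KIF21A fell by 0.46 (1.38-fold, adjusted p = 0.022) in RCS, at 4.68, 4.94, 4.79, 4.76 and 5.12 in RCS, against 5.76, 5.43, 5.5, 5.15 and 4.77 in control. Both are among the 4 genes of the 67 in the lowest 30% of signal, and the KIF21A call was lost without control replicate 1 or 3 or RCS replicate 1 (adjusted p 0.051 to 0.072). KIF3A and KIF5B were not called in any comparison. For KIF3A this holds for its brightest probe set, as 1 of its dimmer ones rose by 0.42 in RCS (limma adjusted p = 0.041).

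The remaining 15 members carry a cell cycle symbol but mostly serve other processes; 1 rose in SWOP, 0 were called in RCO, and 4 rose and 4 fell in RCS. In RCO 1 of them had an unadjusted p under 0.05 in limma. The RCS shares of these 15 were 26.7% each way, close to the 28.8% higher and 25.7% lower of all genes. CDK16, a kinase of the PCTAIRE family, measured 9.33, 9.75, 9.51, 9.61 and 9.9 in SWOP, 9.23, 8.53, 8.64, 9.3 and 9.07 in RCO, 9.04, 8.4, 8.64, 8.71 and 8.9 in RCS, and 8.91, 8.57, 8.93, 8.87 and 8.98 in control hearts. It was the highest in SWOP, where all 5 arrays lay above the 15 others. CDK16 rose by 0.77 ± 0.15 (1.7-fold, adjusted p = 0.011) in SWOP and was not called in RCO, at 0.1 (adjusted p = 0.71), or in RCS, at -0.11 (adjusted p = 0.55). The probe sets of CDK16 did not behave alike: a second one rose by 0.42 in SWOP, 0.29 in RCO and 0.4 in RCS, and the other changed by -0.03 in SWOP. CDK9, the kinase that releases paused RNA polymerase, measured 8.22, 8.43, 8.4, 8.4 and 8.28 in SWOP, 7.92, 8.61, 8.36, 8.26 and 8.28 in RCO, 8.63, 8.72, 8.94, 8.85 and 8.6 in RCS, and 8.06, 8.33, 8.18, 8.35 and 8.19 in control hearts. Its RCS arrays lay above all controls, with a rise of 0.53 (1.44-fold, adjusted p = 0.00047).

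CDKN2AIPNL, a relative of a protein that binds the CDKN2A product, measured 9.76, 9.59, 9.61, 9.66 and 9.64 in SWOP, 10.31, 9.28, 9.69, 9.68 and 9.48 in RCO, 10.18, 9.61, 9.97, 9.78 and 9.7 in RCS, and 9.11, 9.3, 9.45, 9.13 and 9.36 in control hearts. It rose by 0.58 (1.49-fold, adjusted p = 0.0029) in RCS. CDK5RAP3, a part of the ligase that attaches the UFM1 modifier to proteins, measured 8.27, 8.27, 8.24, 8.08 and 7.68 in SWOP, 7.88, 8.47, 8.64, 8.18 and 8.21 in RCO, 8.47, 8.64, 8.63, 8.57 and 8.39 in RCS, and 8.03, 8.09, 8.2, 8.19 and 8.03 in control hearts. It rose by 0.43 (1.35-fold, adjusted p = 0.0083) in RCS. For both, all RCS arrays lay above all controls. With the mean of its 2 probe sets CDK5RAP3 was not called in RCS, at 0.23 (adjusted p = 0.078). CDC123, an assembly factor of translation initiation, measured 10.16, 10.14, 9.73, 10.0 and 10.05 in SWOP, 9.94, 9.64, 9.87, 9.86 and 9.98 in RCO, 9.86, 9.46, 9.61, 9.48 and 9.73 in RCS, and 9.89, 10.19, 10.02, 10.11 and 10.08 in control hearts. It fell by 0.43 (1.35-fold, adjusted p = 0.0014) in RCS, with all RCS arrays below all controls. Its dimmer probe set fell by 0.5 in SWOP (adjusted p = 0.014) and by 0.59 in RCS (adjusted p = 0.00028), whereas the brightest gave -0.04 (adjusted p = 0.81) in SWOP. CDK5, a kinase best known from neurons, rose by 0.25 (1.19-fold, adjusted p = 0.036) in RCS. CDK5RAP1, a modifier of mitochondrial transfer RNA, fell by 0.41 (1.33-fold, adjusted p = 0.016), CDK11B, a kinase of splicing, by 0.25 (1.19-fold, adjusted p = 0.016), and CDK10 by 0.2 (1.15-fold, adjusted p = 0.034). The RCS calls of CDK5, CDK10 and CDK11B were each lost on leaving out 1 array. That of CDK5 was lost without control replicate 1, 3 or 4 or RCS replicate 1, 3 or 4 (adjusted p 0.054 to 0.12), that of CDK10 without control replicate 2 or 4 or RCS replicate 1, 2 or 4 (0.075 to 0.1), and that of CDK11B without RCS replicate 2 (0.056).

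Across the 67 genes 20 were called in none of the 6 comparisons between groups, and their range over the 20 arrays was 0.37 to 1.41 log2 units. Among them were MCM4, CCNA2 and AURKB, genes of replication and mitosis whose relatives rose. For MCM4 this holds for its brightest probe set. Its dimmer probe set rose by 0.57 in RCO (limma adjusted p = 0.017) and 0.92 in RCS (adjusted p = 6.4e-05). KIF3A and CDK13 were also among the 20. In RCS a dimmer probe set of KIF3A rose by 0.42 (adjusted p = 0.041) and a dimmer one of CDK13 fell by 0.32 (adjusted p = 0.0065).

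Whether the repeated protocols differed from the single one was tested directly. Per the design text RCO and SWOP had the same stimulus, repeated or single. SWOP hearts were taken after 24 h of reperfusion, a time not stated for RCO, so repetition and time of sampling cannot be told apart. In RCO against SWOP 7 of the 67 genes were called (10.4%), 4 higher and 3 lower. This share is close to the 11.9% of all genes (5.54% higher and 6.4% lower). CKS2 rose by 1.09 (2.13-fold, adjusted p = 0.0059), CDK7 by 0.41 (1.33-fold, adjusted p = 0.019), CDC25C, a phosphatase that activates the mitotic CDK, by 0.32 (1.25-fold, adjusted p = 0.021) and PLK3 by 0.29 (1.22-fold, adjusted p = 0.039). CDK16 fell by 0.67 (1.59-fold, adjusted p = 0.012), KIF21A by 0.51 (1.42-fold, adjusted p = 0.047) and CDKN1B by 0.41 (1.33-fold, adjusted p = 0.019). The CDK16 fall is that of its brightest probe set. Against control its other probe sets gave 0.42 and -0.03 in SWOP, and 0.29 and -0.07 in RCO. Of these 7 genes CKS2 alone, at 0.83 (adjusted p = 0.037), kept its call without RCO replicates 2 and 3. That fit called 5 of the 67 genes (7.46%). It called 6.76% of all probe sets, a wider base than the genes with 1 symbol. Its other calls were CDKN2B at 0.44 (adjusted p = 0.025), CDKN2C at 0.39 (adjusted p = 0.031), CCND2 at -0.57 (adjusted p = 0.0072) and CDK13 at -0.38 (adjusted p = 0.042). Calls other than those of CKS2 and CDK16 were also lost on leaving out 1 array. CDK7 lost its call without SWOP replicate 3 or 5 (adjusted p 0.054 and 0.051), and CDC25C without RCO replicate 3 or SWOP replicate 4 or 5. CDKN1B lost it without SWOP replicate 2 or 5, PLK3 without any of 7 arrays (RCO replicates 1, 3 and 5 and SWOP replicates 2 to 5), and KIF21A without any of 15 arrays (control replicates 2 to 4, RCO and SWOP replicates 2 to 5 and RCS replicates 1 to 4). The mean of a gene's probe sets gave 0.12 (adjusted p = 0.35) for PLK3 and -0.22 (adjusted p = 0.077) for CDKN1B. All 5 RCO arrays lay above all SWOP arrays for 3 genes and below for 2 (3.28% and 4.01% of all genes). The count of 7 became 4 without RCO replicate 3 or SWOP replicate 2, 3 or 4, 2 without SWOP replicate 5 and 13 without RCO replicate 5.

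In RCS against SWOP 27 of the 67 genes were called (40.3%), 21 higher and 6 lower, where 38.0% of all genes were called (20.3% higher and 17.7% lower). Of the DNA replication genes 5 rose: PCLAF by 1.35 (2.56-fold, adjusted p = 0.00099), RRM2 by 1.24 (2.36-fold, adjusted p = 0.0015), MCM2 by 0.64 (1.56-fold, adjusted p = 0.014), MCM3 by 0.63 (1.55-fold, adjusted p = 0.0033) and MCM5 by 0.37 (1.3-fold, adjusted p = 0.038). PCNA did not pass, at 0.27 (adjusted p = 0.26). Of the engine, CKS2 rose by 1.18 (2.26-fold, adjusted p = 0.00047), CCNB1 by 1.11 (2.16-fold, adjusted p = 0.0061) and CCNB2 by 0.9 (1.87-fold, adjusted p = 0.011). Of the spindle group 7 rose, among them TOP2A by 0.97 (1.96-fold, adjusted p = 0.0013), AURKA by 0.83 (1.78-fold, adjusted p = 0.0011), PLK1 by 0.56 (1.48-fold, adjusted p = 0.0069) and KIF2A by 0.81 (1.76-fold, adjusted p = 0.00021). CDK16 fell by 0.88 (1.84-fold, adjusted p = 0.00026) on its brightest probe set and CCNG1 by 0.52 (1.44-fold, adjusted p = 0.009). Against control the other CDK16 probe sets gave 0.42 and -0.03 in SWOP, and 0.4 and -0.05 in RCS. The MCM2 call was lost without RCS replicate 3 (adjusted p = 0.05), and the MCM5 call without SWOP replicate 1, 2, 4 or 5 or RCS replicate 3 or 4 (0.052 to 0.11). All 5 RCS arrays lay above all SWOP arrays for 21 genes and below for 6 (17.9% and 14.3% of all genes).

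In RCS against RCO 9 genes were called (13.4%), 7 higher and 2 lower, where 21.6% of all genes were called (11.7% higher and 9.9% lower). KIF2A rose by 0.56 (1.48-fold, adjusted p = 0.0099), CDK9 by 0.46 (1.38-fold, adjusted p = 0.0067), MCM2 by 0.58 (1.49-fold, adjusted p = 0.037), CENPI by 0.5 (1.42-fold, adjusted p = 0.034), CDK2AP2 by 0.35 (1.28-fold, adjusted p = 0.018), BUB3 by 0.33 (1.26-fold, adjusted p = 0.011) and CDKN2AIP by 0.25 (1.19-fold, adjusted p = 0.038). CDKN2B, in the lowest 30% of signal, fell by 0.46 (1.37-fold, adjusted p = 0.0076) and PLK3 by 0.28 (1.21-fold, adjusted p = 0.031). All 5 RCS arrays lay above all RCO arrays for 3 genes and below for 2 (3.52% and 3.44% of all genes). The count was 28 (41.8%) without RCO replicates 2 and 3. Of all probe sets, a wider base than the genes with 1 symbol, 37.7% were called in that fit, against 19.1% with all arrays. The count of 28 took in 5 genes of DNA replication and 7 of the spindle that rose. RCO replicates 2 and 3 were left out because these same gene groups lay near RCS in them. The higher count therefore follows in part from that choice and is no separate evidence of a difference. Leaving out 1 array gave 21 without RCO replicate 2, 5 without RCO replicate 5 and 4 without RCS replicate 3. MCM2, CENPI, PLK3, CDKN2AIP and CDK2AP2 lost their calls in such fits. MCM2 lost its call without RCO replicate 1, 4 or 5 or RCS replicate 3 or 4, and CENPI and PLK3 without RCO replicate 1 or 5 or RCS replicate 1 or 3. CDKN2AIP lost it without RCO replicate 3, 4 or 5 or RCS replicate 1, 2, 3 or 4, and CDK2AP2 without RCS replicate 3. The mean of a gene's probe sets gave 0.16 (adjusted p = 0.16) for MCM2, -0.16 (adjusted p = 0.14) for PLK3 and 0.14 (adjusted p = 0.11) for CDKN2AIP, none called.

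Other genes of the cell cycle, whose symbols the rule does not take in, were read from 3 lists. Of 22 measured mitosis genes 2 rose in SWOP, 15 in RCO and 19 in RCS, and none fell. Their median differences from control were 0.34, 0.68 and 0.95. Of all genes 4.66%, 11.3% and 28.8% rose in these comparisons. Without RCO replicates 2 and 3 the RCO count was 8. MELK, a kinase of proliferating cells, averaged 6.65 ± 0.36 in RCO and 7.03 ± 0.21 in RCS, against 5.17 ± 0.45 in control (SD, n = 5 each), a rise of 1.48 and 1.86. DLGAP5, a spindle protein, averaged 6.72 ± 0.48 in RCO and 6.97 ± 0.29 in RCS, against 5.43 ± 0.2 in control. H2AFZ, a histone variant, averaged 10.62 ± 0.14 in SWOP, 11.04 ± 0.38 in RCO and 11.57 ± 0.24 in RCS, against 9.99 ± 0.23 in control. Leaving out control replicate 2 or 4 or SWOP replicate 2 or 4 ended its SWOP call. RACGAP1, which acts in cytokinesis, rose by 1.17 in RCO and 1.8 in RCS, MAD2L1, a checkpoint protein, by 0.81 and 1.19, and HMMR by 0.97 in RCS. TUBB4B, a tubulin, rose by 0.58 in SWOP (adjusted p = 0.012). The SWOP count of 2 became 1 without control replicate 2 or 4 or SWOP replicate 2 or 4, 4 without control replicate 5 or RCO replicate 1, and 5 without control replicate 3 or RCO replicate 5.

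Of 25 measured replication and S phase genes 0 were called in SWOP, 5 rose and 1 fell in RCO, and 10 rose and 5 fell in RCS, with median differences of -0.04, 0.13 and 0.19. In SWOP 4 of them had an unadjusted p under 0.05 in limma. Of all genes 11.3% rose and 4.26% fell in RCO, and 28.8% rose and 25.7% fell in RCS. TYMS, the enzyme of thymidylate synthesis, averaged 7.96 ± 0.46 in RCO, against 6.96 ± 0.34 in control (SD, n = 5 each; adjusted p = 0.0034). RPA2, a subunit of the protein that coats single-stranded DNA, averaged 9.17 ± 0.21 in RCS, against 8.33 ± 0.22 in control (adjusted p = 1e-05). PRIM2 of the primase rose by 0.83 and FEN1, which processes Okazaki fragments, by 0.63 in RCS. Without RCO replicate 3, as without RCO replicates 2 and 3, the RCO count was 3 higher and 0 lower. ORC3, the 1 gene that fell in RCO, also lost its call without control replicate 1, 3, 4 or 5, RCO replicate 1 or 2, SWOP replicate 2, 3, 4 or 5 or RCS replicate 4. The 5 that fell in RCS became 2 without control replicate 2 or RCS replicate 2. They became 3 without control replicate 3, 4 or 5 or RCS replicate 3 or 5. Of 29 measured control and checkpoint genes 1 rose and 1 fell in SWOP, 3 rose and 1 fell in RCO, and 7 rose and 6 fell in RCS. Both RCS counts are smaller shares than the 28.8% and 25.7% of all genes. MYBL2, a transcription factor of late cycle genes, averaged 8.35 ± 0.3 in RCS, against 7.51 ± 0.09 in control (adjusted p = 0.0006). CHEK2, a checkpoint kinase, rose by 0.56 in RCS. CCNI, an atypical cyclin of resting cells, fell by 0.44 in RCO and 0.6 in RCS, and ANAPC5 of the anaphase-promoting complex by 0.35 in SWOP and 0.53 in RCS. With the mean of its probe sets ANAPC5 gave -0.03 (adjusted p = 0.81) in SWOP and -0.11 (adjusted p = 0.25) in RCS, not called. LIN37, the 1 gene that rose in SWOP, lost its call without any 1 of the 5 controls, SWOP replicate 1, 3, 4 or 5, RCS replicate 1, 2, 4 or 5 or RCO replicate 3. The mean of its probe sets gave 0.23 (adjusted p = 0.072). The RCS count of 7 higher became 4 without control replicate 2 or 5. The RCO count of 3 higher became 1 without control replicate 2 or RCO replicate 2 or 3 and 6 without RCO replicate 5, and 0 without RCO replicates 2 and 3 together.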

How the data were processed

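Per the labels, total RNA of pig heart was extracted with Trizol, reverse transcribed from a T7-oligo(dT) primer and transcribed into biotin-labelled RNA, which was hybridised to 1 porcine Affymetrix array (1 colour) for each animal. The values are log2 signals as deposited by the authors, used without further normalization; the table does not state the base of the logarithm, for which their range gives 2. RMA and MAS5 are named in the submitters' processing notes, without versions or the step each served. Raw image files were not used here. Precision is limited by the number of arrays, 5 per group. Interquartile ranges of the arrays were 3.26 to 3.3 in SWOP, 3.27 to 3.44 in RCS and 3.04 to 3.16 in control hearts. In RCO replicates 1 to 5 they were 3.06, 3.32, 3.31, 3.22 and 3.05. Mean spike-in signals were 10.18 to 10.4 in RCS, below those of all other arrays, which began at 10.42. Quantile normalization gave 8, 15 and 40 calls among the genes followed here in SWOP, RCO and RCS, instead of 9, 14 and 44. The p-values rest on 1 spread per probe set, shared by the 4 groups and moderated by limma, although the groups scattered unequally. For PCLAF the SD was 0.23 in SWOP, 0.59 in RCO, 0.34 in RCS and 0.62 in control hearts.

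Of 24123 probe sets 124 control spots were left out and 23999 tested. Of these, 10069 had 1 gene symbol in the platform's table, 198 several and 13732 none, and genes were named from those with 1. The 67 genes had 91 probe sets, 17 genes having more than 1, and all 67 symbols matched the table's Entrez entry. The probe set of highest mean over the 20 arrays stood for a gene.

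A mean per group was fitted across the 20 arrays by limma 3.58.1 (lmFit, then eBayes; R 4.3.3; 16 residual degrees of freedom), 6 differences were tested two-sided, and p-values were adjusted over all 23999 probe sets (Benjamini-Hochberg). The method was tested on simulated data. Values of every array are given for genes called against control, up to 30 per comparison by smallest adjusted p; further genes were named where the text turns on them. The genes, the 3 lists of other cell cycle genes and the 7 marker lists were chosen with earlier results of these data known. Summed marker signals are sums of values taken out of the log2 scale. Alternatives were quantile normalization, median centring, a filter on probe sets under the 30th percentile of signal, array weights, a robust spread with an intensity trend, a weight per group, a replicate block, a fit of only the compared groups, the mean of a gene's probe sets, a limit of 1.5-fold and each array left out. Fits without RCO replicates 2 and 3, and without RCO replicate 1 and SWOP replicate 1, whose spike-in signal was high, were added after seeing the data. Further tables used pandas 2.3.3 and numpy 2.4.6 in Python 3.11.15, and figures matplotlib 3.10.9. Promoter and protein sequences were not analysed here.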

Additional observations from a re-analysis of the deposited data

Results flagged for a closer look

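For each of the 67 genes and 4 groups the highest and lowest array were compared with their nearest neighbour by Dixon's ratio of gap to range (critical value 0.71 for 5 arrays). Of 268 such groups 16 had an array that stood apart, 7 in SWOP, 2 in RCO, 5 in RCS and 2 in control; chance alone flags about 1 group in 20, or 13.4 of 268. The number found is thus close to that which chance gives, and the values are listed as measured log2 signals.

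In SWOP, replicate 1 was low for CDK2, at 7.66 with the next array at 8.0, and high for KIF3A (6.71, next 6.44) and PLK2 (9.2, next 8.69). Replicate 2 was low for CDK13 (7.88, next 8.03) and replicate 3 for CDC20 (6.59, next 6.86). Replicate 5 was low for MCM5 (6.63, next 6.92) and high for KIF21A (5.97, next 5.54). In RCO, replicate 1 was low for CDC25B (7.96, next 8.89) and replicate 5 for PCNA (8.5, next 9.08). In RCS, replicate 5 was low for CKS2 (9.04, next 9.65) and KIF2A (7.44, next 7.82) and high for CDKN2C (7.21, next 7.03). RCS replicate 1 was high for CDKN2AIP (7.22, next 7.07) and RCS replicate 3 for MCM5 (7.9, next 7.22). In control, replicate 2 was low for CDC25C (5.31, next 5.61) and CDK16 (8.57, next 8.87).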

How the results depend on the processing

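Over the 110 calls of a gene in a comparison, the alternatives gave 3204 values with the same direction and side of the threshold, 310 that missed the threshold and 0 reversed. Genes that kept their call under every alternative numbered 2 of 9 in SWOP, 5 of 14 in RCO and 18 of 44 in RCS against control, 1 of 7 in RCO against SWOP, 15 of 27 in RCS against SWOP and 0 of 9 in RCS against RCO; the 1.5-fold limit by its construction ends every call of a smaller difference. In the order of these 6 comparisons, that limit left 4, 9, 19, 2, 16 and 0 genes. SWOP against control had 19 calls with array weights, 19 with a weight per group and 15 when only the 2 groups were fitted. RCO against control had 7 when only the 2 groups were fitted and 8 without RCO replicates 2 and 3. RCO against SWOP had 14 with array weights, 4 with a weight per group, 3 with the 2 groups alone and 12 without RCO replicate 1 and SWOP replicate 1. RCS against RCO had 5 with a weight per group, 1 with the 2 groups alone and 28 without RCO replicates 2 and 3. The cause of these shifts was not tested. With each array left out in turn the counts ran from 4 to 11, 9 to 22, 36 to 47, 2 to 13, 24 to 32 and 4 to 21. Replicate numbers were not taken to pair the samples, since in no 2 groups were all 5 correlations of deviations between same-numbered arrays over 0.1. RCO with RCS came nearest, at 0.077 to 0.44 with 4 of 5 over 0.1 and 3 arrays correlating best with their own number, a hint from the data and not from the design. SWOP with RCO had 3 of 5 over 0.1, and each group with control at most 1. With a replicate block the counts were 9, 20, 44, 9, 30 and 11, and the RCS call of CDKN1B was missed (adjusted p = 0.052). The 4 genes below the 30th percentile of signal gave no value where dim probe sets were left out. Over all probe sets, SWOP against control had 1716 calls, with 957 after quantile normalization, 5710 with array weights, 4765 with a weight per group, 4091 with the 2 groups alone and 254 past 1.5-fold; RCO against control had 2571, with 1343, 564 and 1135 under a weight per group, the 2 groups alone and without RCO replicates 2 and 3, and RCS against RCO 4572, with 2141, 931 and 9052. Median centring raised the share of higher calls in SWOP from 42.1% to 57.2%. Signals carry no detection calls, so dim genes cannot be told from undetected ones, and RNA amount per cell from cell number.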
